A study of Mus musculus with 8 samples.

Results

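Gm26917, Malat1, Neat1, Meg3, Gas5 and Snhg1 are 6 long noncoding RNA genes among the 35275 gene rows of an RNA-Seq table from mouse lens fiber cells (FC). Gm26917 was chosen by its FPKM values in these same 8 libraries, because its level differed most clearly between cigarette smoke (CS)-exposed and untreated control (Ct) mice, so its difference between these groups is given as a description without a test, and the other 5 were set beside it as well-known long noncoding RNAs of the nucleus or hosts of nuclear RNAs. The 8 libraries were made from C57BL/6 mice (C57BL/6J in the study's methods), 4 from FC of CS-exposed mice (CS-FC) and 4 from FC of age-matched untreated Ct mice (CT-FC). Exposure in the CS group took place in a chamber for the whole body that already held the dams at the end of gestation, and for the pups it lasted 3.5 months, with 5 smoke days per week of 5 hours each. The untreated Ct mice lived in the animal facility over the same time. Each library is 1 pool of lens FC from the right eyes of 4 mice, dissected from the lens epithelium under a microscope. The study's methods describe male and female pools in each group, and the labels do not give the sex of a library. No transgene or mutant allele was involved, and chamber housing itself was not given to the untreated Ct mice, so smoke and chamber cannot be told apart.

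Lens FC arise from the lens epithelium throughout life and lose their nuclei and organelles as they mature, so RNAs that reside in the nucleus are of particular interest in this cell type. Malat1 is a long RNA of nuclear speckles, the bodies that store splicing factors, while Neat1 is the scaffold on which paraspeckles assemble. Meg3 is the maternally expressed RNA of the imprinted Dlk1-Dio3 domain. Gas5 and Snhg1 are host genes: small nucleolar RNAs (snoRNAs), which guide chemical modification of ribosomal RNA, are cut from their introns, and their spliced exons are short-lived because they are degraded by nonsense-mediated decay. Gm26917 is a predicted noncoding gene that lies next to sequence annotated as ribosomal RNA.

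The sequence of Gm26917 is shown first because its base composition is unlike that of Malat1, Neat1, Meg3 and Gas5. In GENCODE M21 (build GRCm38, as named for the deposited values) Gm26917 (ENSMUSG00000097971) spans chr17:39843013-39846341 on the plus strand. The FPKM values (fragments per kilobase of gene, scaled to the depth of the library) imply, by the size of their steps, a gene length of 869 bases. This equals the length of the spliced annotated transcript and not the 3329 bases of the whole annotated gene. A second annotated transcript is unspliced and covers these 3329 bases. The rule by which lengths were chosen is not given in the sources used here. The exons of the spliced transcript lie at chr17:39845074-39845140 (67 bases) and chr17:39845444-39846245 (802 bases). Below, the first exon is in capitals in the 5′ stretch of 167 bases, and each CG is in capitals in the last 100 bases, chr17:39846146-39846245.
Gm26917 start: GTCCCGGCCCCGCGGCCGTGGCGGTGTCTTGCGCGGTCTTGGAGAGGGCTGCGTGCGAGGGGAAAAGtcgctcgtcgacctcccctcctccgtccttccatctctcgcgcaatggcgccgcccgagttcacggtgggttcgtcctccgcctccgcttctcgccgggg
Gm26917 end: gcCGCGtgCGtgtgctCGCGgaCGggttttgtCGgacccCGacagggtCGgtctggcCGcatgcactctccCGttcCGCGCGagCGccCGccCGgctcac

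The spliced transcript held 72.3% G and C and 118 CG dinucleotides, and 4 of the 9101 annotated lincRNA transcripts, itself included, had that GC content or a higher one. The median of those transcripts was 46.2%. Malat1 was at 42.5%, Gas5 at 42.3%, Neat1 at 47.3% and Meg3 at 49.2% in the transcript that matched the length behind their FPKM. No stretch of 25 bases of the spliced Gm26917 transcript occurred, on either strand, in a transcript of any other gene of the annotation. The search covered annotated transcripts only, so it cannot tell whether unannotated ribosomal RNA sequence shares such stretches. The entry CT010467.1, annotated as rRNA on the minus strand, starts 12 bases after the last base of Gm26917. Gm42418 starts 617 bases after it, on the plus strand, and AY036118 starts 772 bases after it, on the minus strand. Of these neighbours AY036118 was listed at 0 FPKM in every library, and the others were not analysed here.

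**Figure D1:**
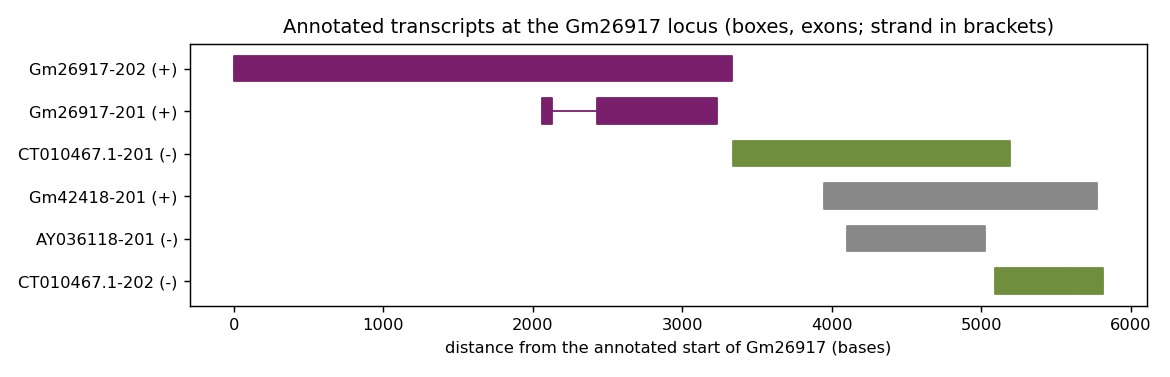
Annotated transcripts at the Gm26917 locus, drawn to scale as distance in bases from the annotated start of the gene, with exons as boxes and the strand in brackets. The spliced transcript of 869 bases sits in the downstream part of the gene, and the rRNA entry CT010467.1 begins 12 bases after the gene ends.

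Malat1 (chr19:5795690-5802672) and Neat1 (chr19:5824708-5845478) lie on the minus strand of the same chromosome. Their 3′ ends are shown because both carry the U-rich stretches and A-rich tract that are known to fold into a triple helix, which protects these RNAs in place of a poly(A) tail. Both windows, chr19:5795974-5796073 for Malat1 and chr19:5824708-5824805 for Neat1, are written in the direction of the transcript. In capitals are the runs of at least 11 bases that the last 100 annotated bases of Neat1 shared, in the same order, with the last 400 of Malat1. The last of these runs ends the annotated Neat1, while the annotated Malat1 continues beyond it.
Malat1 end: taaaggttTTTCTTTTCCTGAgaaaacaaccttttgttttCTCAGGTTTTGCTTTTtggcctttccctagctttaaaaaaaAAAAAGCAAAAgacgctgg
Neat1 end: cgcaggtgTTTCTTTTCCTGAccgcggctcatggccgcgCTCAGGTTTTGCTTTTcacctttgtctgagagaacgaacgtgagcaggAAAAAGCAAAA

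On the transcript strand TTTCTTTTCCTGA occurred in 35 of 141767 annotated transcripts (0.0247%), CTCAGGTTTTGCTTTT in 2 (0.00141%) and AAAAAGCAAAA in 618 (0.436%). All 3 in this order, with at most 60 bases between neighbours, were found in 2 transcripts, one of Malat1 and one of Neat1.

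Gas5 (chr1:161034422-161038539, plus strand) contained genes annotated as snoRNA under 9 names and Snhg1 (chr19:8723475-8726443, plus strand) under 8. A pair from each host is printed to show what these genes carry besides their exons, with box C (TGATGA) and box D (CTGA), the short motifs of this snoRNA class, in capitals. Snord47 (chr1:161038082-161038158) and Snord80 (chr1:161037601-161037681) lie in Gas5, and Gm25855 (chr19:8723993-8724064) and Gm22744 (chr19:8725092-8725156) in Snhg1. The levels of the snoRNAs were not analysed here.
Snord47: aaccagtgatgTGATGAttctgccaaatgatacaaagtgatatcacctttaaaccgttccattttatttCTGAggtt
Snord80: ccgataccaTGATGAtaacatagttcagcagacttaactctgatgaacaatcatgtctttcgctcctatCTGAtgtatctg
Gm25855: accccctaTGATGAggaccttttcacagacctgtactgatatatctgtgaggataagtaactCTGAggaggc
Gm22744: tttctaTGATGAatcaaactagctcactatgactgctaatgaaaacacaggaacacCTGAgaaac

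The libraries held 18100000 to 23300000 fragments, with a median of 313 reads for a tested gene, as recovered from the steps of the FPKM values. The 10 lens fiber cell markers, crystallins and fiber membrane proteins among them, summed to 312000 to 321000 FPKM in the untreated Ct libraries and 303000 to 315000 in the CS libraries, which matches the labelled cell type. Markers of 7 other cell types were low beside them. The sum of the lens epithelium markers was 115 to 174 FPKM in untreated Ct and 102 to 131 in CS. The 12 rod photoreceptor markers summed to 11.4 to 31.2 FPKM in untreated Ct and 34.2 to 101 in CS. Of the 12, 8 were higher in every CS library than in every untreated Ct library, beside 1.8% of all genes tested. The 7 retinal pigment epithelium markers summed to 1.43 to 2.44 against 3.62 to 27.0 FPKM, and the 5 red blood cell markers to 0.265 to 1.73 against 0.5 to 22.8 FPKM. The 6 pigmented cell markers summed to 0.362 to 2.61 against 0.425 to 6.52 FPKM. All 6 immune cell markers and all 7 endothelium and stroma markers were under 0.5 FPKM in every library. The rod and pigment epithelium sums therefore moved with the exposure, as did the level of Gm26917 given below, and their part in its difference and in those of the other RNAs was not tested. Xist was at most 0.01132 FPKM in replicates 1 and 2 and between 41.11 and 48.99 FPKM in replicates 3 and 4 of both groups, so the contrasts are also given within these pairs of replicates.

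**Figure D2:**
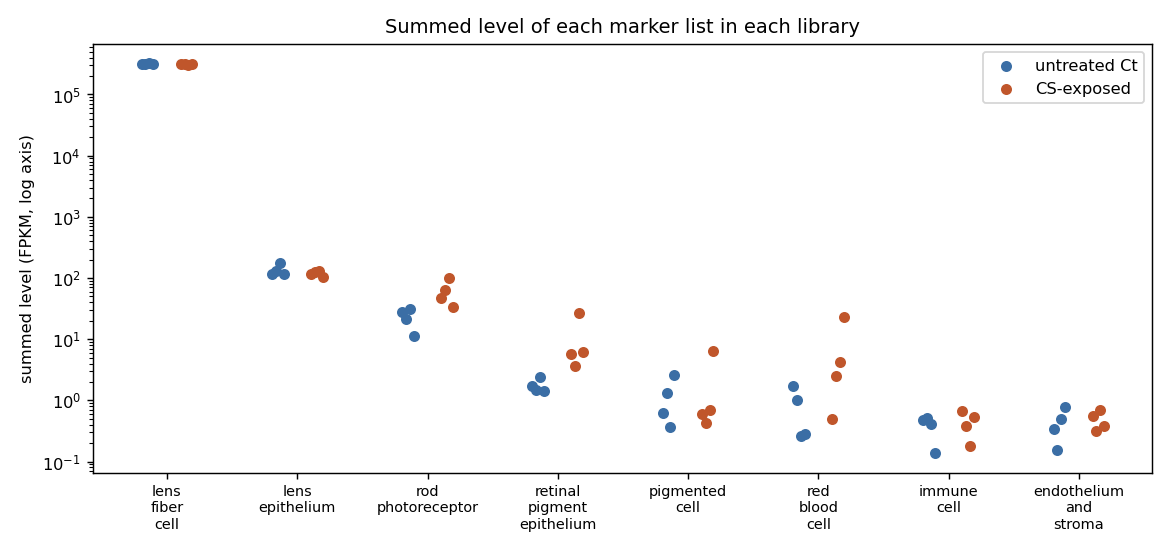
Summed FPKM (log axis) of each marker list in each of the 8 libraries. Fiber cell markers sit between 303000 and 321000 FPKM in the 8 libraries, and the rod photoreceptor and retinal pigment epithelium sums of all 4 CS libraries lie above those of all 4 untreated Ct libraries.

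The 6 RNAs covered a wide range of levels, and Meg3 was barely detected. In untreated Ct FC the mean level fell from Malat1 (366.1 ± 42.82 FPKM, SD, n = 4) through Gas5 (269.3 ± 12.81), Gm26917 (65.95 ± 9.086), Neat1 (23.18 ± 4.489) and Snhg1 (6.765 ± 0.7797) to Meg3 (0.02223 ± 0.008474). In these 4 libraries no neighbours in that order had overlapping ranges. In CS-exposed FC the order was the same, but the ranges of Malat1 (276.6 to 362.5 FPKM) and Gas5 (271.7 to 308.9) overlapped, and so did those of Gm26917 (20.51 to 32.74) and Neat1 (21.99 to 26.79). Among the 9794 genes whose mean reached 1 FPKM in at least one group, Malat1 ranked 128 in untreated Ct and 140 in CS, Gas5 163 and 156, Gm26917 502 and 1226, Neat1 1354 and 1269, and Snhg1 3734 and 3404. The label of abundant nuclear RNA thus did not hold for Meg3 in these cells.

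The order depends on the length each count was divided by. The length implied by the FPKM of Gas5 was 2556 bases, the length of an annotated transcript that retains introns, whereas its transcripts annotated as lincRNA are 346 to 665 bases long. For Snhg1 the implied length was 2719 bases against 408 to 709. Divided by the longest lincRNA transcript instead, an alternative chosen after the data were seen, the mean level of Gas5 became 1035 FPKM in untreated Ct and 1131 in CS, above Malat1, and that of Snhg1 became 25.95 and 29.29, next to Neat1. In the same way, divided by the whole gene of 3329 bases, Gm26917 became 17.22 and 6.843 FPKM, below Neat1. Ratios between the groups are not affected by this divisor.

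**Figure D3:**
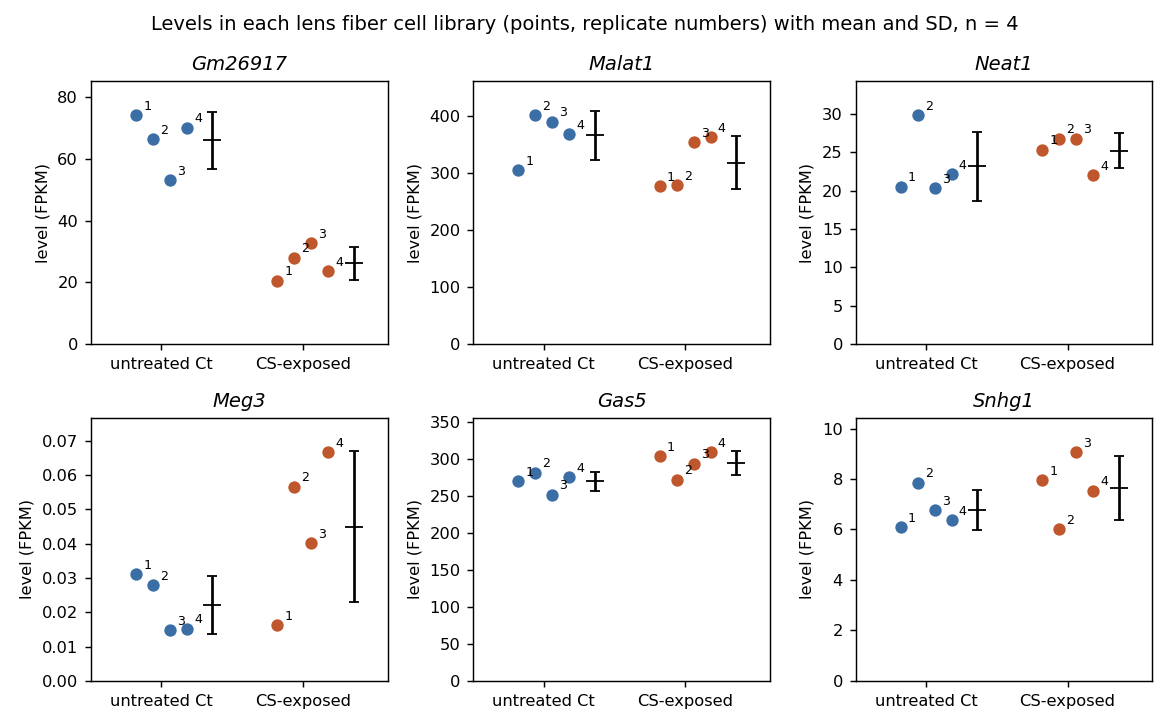
Level in FPKM of each RNA in each library (points, numbered by replicate) with the mean and SD of 4 libraries. All 4 CS-exposed libraries lie below all 4 untreated Ct libraries for Gm26917, and the groups overlap for the other 5 RNAs.

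Gm26917 was lower in every library of CS-exposed FC. Its level was 74.08, 66.44, 53.15 and 70.15 FPKM in untreated Ct libraries 1 to 4. In CS-exposed libraries 1 to 4 it was 20.51, 28.06, 32.74 and 23.56 FPKM. The highest CS-exposed library was thus below the lowest untreated Ct library, and these values chose the gene. In such pooled tissue fewer cells that hold the RNA and less RNA per cell cannot be told apart. The removal of ribosomal RNA is not given in the sources used here. Any part of reads from neighbouring ribosomal RNA sequence in these values was not tested. The means were 65.95 ± 9.086 and 26.22 ± 5.342 FPKM (SD, n = 4), a difference of -1.34 on the log2(FPKM + 0.1) scale (SE 0.138), or a level 2.52-fold lower. The counts behind them were 1074 to 1280 reads in untreated Ct and 376 to 584 in CS. Counting error alone would give a coefficient of variation of 2.95% and 4.57%, and the libraries varied by 13.8% and 20.4%.

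Within replicates 1 and 2, which had almost no Xist, the means of Gm26917 were 70.26 and 24.28 FPKM in untreated Ct and CS, a log2 difference of -1.54. Within replicates 3 and 4 the means were 61.65 and 28.15 FPKM, a log2 difference of -1.13. Leaving out 1 library at a time gave -1.45 to -1.23, with -1.45 without CS-exposed replicate 3. That library had the highest Gm26917 of its group, at 32.74 FPKM, so leaving it out had to enlarge the difference. It also had the highest rod and pigment epithelium sums, and the value of -1.45 does not test their part. Of the 9794 genes, 1 (0.0102%) passed an adjusted p of 0.05 in the limma fit, and this was Gm26917 itself, so the count only restates how the gene was chosen. No gene passed with no minimum level, without the variance trend, or without untreated Ct replicate 4. The groups did not overlap for 302 genes (3.08%), of which 126 (1.29%) were lower in CS and 176 (1.8%) higher.

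The size of this change was part of how Gm26917 was chosen, and the values of other genes are given for scale. Among the 1558 genes with means of 20 FPKM or more the median absolute log2 fold change was 0.0477, and after Gm26917 the next was Gm3699 with 0.433. Of all genes tested, 97 had absolute log2 fold changes of 1 or more, and the plot of change against level shows the wider scatter of genes with low values. Among genes of lower level Gnat1, the transducin of rods, had a log2 fold change of 1.70, and genes with larger falls than Gm26917 included the neuropeptide gene Npy, with means of 2.81 and 0 FPKM and at most 115 reads in a library, and Cep162, with 7.25 and 1.13 FPKM. Beside Neat1 in the same library, Gm26917 was 2.23 to 3.61 times as high in untreated Ct and 0.809 to 1.22 times as high in CS. These ratios use the implied lengths. Divided by 3329 bases, Gm26917 would be at 17.22 and 6.843 FPKM, below Neat1 at 23.18 and 25.22.

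**Figure D4:**
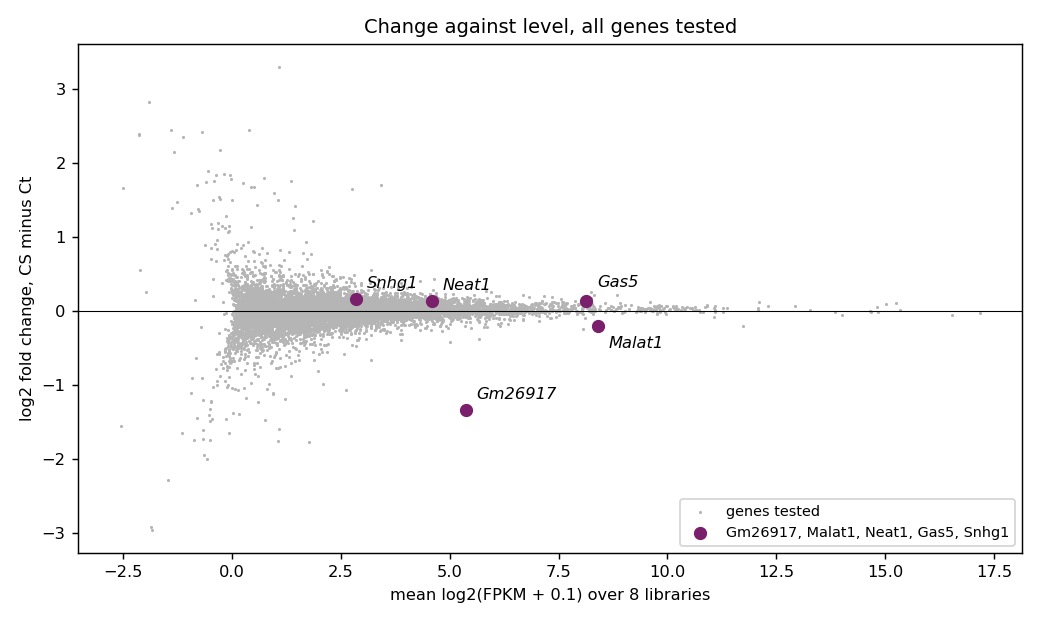
Log2 fold change (CS minus untreated Ct) of each of the 9794 tested genes against its mean log2(FPKM + 0.1) over 8 libraries, with Gm26917, Malat1, Neat1, Gas5 and Snhg1 in purple. Gm26917 at -1.34 stands below the band of genes of similar level, and Malat1, Neat1, Gas5 and Snhg1 lie between -0.21 and 0.16.

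Malat1 had a lower mean in CS-exposed FC, and its difference did not pass the test. Its level was 305.3, 401.1, 390.0 and 368.0 FPKM in untreated Ct and 276.6, 278.9, 353.6 and 362.5 FPKM in CS-exposed libraries 1 to 4. Of the values in CS-exposed FC 2 were below the untreated Ct range and 2 lay within it. The log2 fold change was -0.21 (SE 0.105, 95% interval -0.436 to 0.0216), with limma p = 0.0718 and adjusted p = 0.956, and the exact permutation p over the 70 assignments of libraries was 0.171. At an unadjusted limma p under 0.05 there were 473 genes (4.83%) in all, 204 (2.08%) lower and 269 (2.75%) higher in CS. Replicates 1 and 2 gave -0.333 and replicates 3 and 4 gave -0.0815, and within each of these pairs both libraries of CS-exposed FC had less Malat1 than both of untreated Ct FC. With the pairs as a factor the limma p was 0.0251, and it was under 0.05 under 7 of 20 alternatives, always with adjusted p of at least 0.822.

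Neat1 did not differ beyond the spread of the libraries. Its level was 20.51, 29.81, 20.31 and 22.11 FPKM in untreated Ct and 25.35, 26.79, 26.76 and 21.99 FPKM in CS. Untreated Ct replicate 2 was the highest of the 8 libraries and the other 3 of that group were among the 4 lowest. The log2 fold change was 0.13 (SE 0.117, 95% interval -0.121 to 0.39), with limma p = 0.271, adjusted p = 0.966 and exact permutation p = 0.429. Without untreated Ct replicate 2 it was 0.26, with an unadjusted limma p of 0.00953. It was 0.0754 in replicates 1 and 2 and 0.194 in replicates 3 and 4. The ratio of Malat1 to Neat1 was 16.0 ± 2.45 in untreated Ct and 12.8 ± 2.78 in CS (SD, n = 4, exact permutation p = 0.114).

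Genes for proteins that share nuclear bodies with Malat1 and Neat1 were listed next, and over all genes 4.83% had an unadjusted limma p under 0.05. Of 19 tested genes of paraspeckle proteins none was past that value in either direction, and their median log2 fold change was 0.0545, beside 0.00427 over all genes. Hnrnpk, at 88.3 and 90.5 FPKM in untreated Ct and CS, Hnrnph3, at 53.2 and 53.6, and Ewsr1, at 49.2 and 48.2, were the most abundant of them. Of 21 genes of nuclear speckle and splicing proteins 1 was higher at an unadjusted p under 0.05 and none lower, with a median of 0.0357. This was Clk1, a kinase that phosphorylates splicing factors. Its level was 16.88, 16.31, 15.75 and 16.88 FPKM in untreated Ct and 17.2, 18.75, 18.81 and 19.55 FPKM in CS. The groups of Clk1 did not overlap, as for 1.8% of all genes tested in that direction. With an unadjusted limma p of 0.0193 and adjusted p = 0.956 Clk1 did not pass. Srsf5, U2af2 and U2af1, the most abundant of that list, had log2 fold changes of -0.0124, 0.0635 and -0.00546.

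Among 27 other long noncoding RNAs of the nucleus listed with Gm26917, 20 could be matched and 11 passed the minimum level, Malat1 and Neat1 included. The log2 fold change was above 0 for 10 of these 11, beside 5019 of all 9794 genes tested, and 1 of the 10 was Xist, at 0.014 with an SE of 2.56. The median was 0.0743, and 1 of the 11 had an unadjusted limma p under 0.05, beside 4.83% of all genes. This was Ftx, an RNA of the X inactivation centre. It measured 2.27, 2.203, 2.374 and 2.34 FPKM in untreated Ct and 2.838, 2.927, 2.724 and 3.471 FPKM in CS, a log2 fold change of 0.36 (SE 0.117, unadjusted limma p of 0.01, adjusted p = 0.956). Its groups did not overlap, as for 1.8% of all genes tested in that direction, and its difference did not pass the adjusted threshold.

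Meg3 was at the edge of detection and was below the minimum level for the fit. Its level was 0.031, 0.028, 0.015 and 0.015 FPKM in untreated Ct, from 9, 8, 5 and 4 reads. In CS it was 0.016, 0.057, 0.040 and 0.067 FPKM, from 5, 19, 12 and 21 reads. Of the CS-exposed libraries 3 were above every untreated Ct library and 1 lay within their range. Per fragment sequenced, the summed 57 reads of CS against 26 of untreated Ct gave a ratio of 2.06 (exact 95% interval 1.27 to 3.41, counting error only). Between libraries the exact permutation p was 0.114, which did not pass. Without CS-exposed replicate 1 that p was 0.0286. On the log2(FPKM + 0.1) scale the difference was 0.0596 in replicates 1 and 2 and 0.411 in replicates 3 and 4. Every Meg3 value was under 0.1 FPKM, so the size depends on the pseudocount. Over all libraries it was 0.235, against 0.0315 with a pseudocount of 1 and 0.698 with 0.01. The other matched genes of the Dlk1-Dio3 domain were also under the minimum, and 0 of 7 were tested: Begain had means of 0.171 and 0.239 FPKM, Rian 0.00777 and 0.0293, and Mirg 0.0165 and 0.00567. Dlk1, the paternally expressed growth regulator of the domain, was listed at 0 in every library.

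Gas5 had a slightly higher mean in CS-exposed FC. Its level was 269.9, 281.1, 251.3 and 274.7 FPKM in untreated Ct and 303.1, 271.7, 293.2 and 308.9 FPKM in CS. Of the CS-exposed libraries 3 were above every untreated Ct library, and replicate 2 lay within their range. The log2 fold change was 0.13 (SE 0.0502, 95% interval 0.0173 to 0.237), with limma p = 0.027, adjusted p = 0.956 and exact permutation p = 0.0857, so it did not pass after adjustment. It was 0.0589 in replicates 1 and 2 and 0.196 in replicates 3 and 4. The unadjusted p was 0.05 or more without untreated Ct replicate 3, CS-exposed replicate 1 or CS-exposed replicate 4, where it was 0.0772, 0.071 and 0.0797, and the log2 fold change was then 0.0946, 0.112 and 0.103. The opposite strand is annotated with Zbtb37 at Gas5, Gm37376 at Malat1 and Gm26906 at Meg3, and since it is not stated whether counting used strand, reads of these genes and of the RNAs opposite them cannot be told apart.

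Snhg1 did not differ beyond the spread of the libraries. Its level was 6.085, 7.860, 6.754 and 6.362 FPKM in untreated Ct and 7.948, 6.004, 9.067 and 7.531 FPKM in CS. CS-exposed replicate 2 was the lowest of all 8 libraries and CS-exposed replicate 3 the highest. The log2 fold change was 0.16 (SE 0.126, 95% interval -0.113 to 0.441), with limma p = 0.22, adjusted p = 0.956 and exact permutation p = 0.343. It was 0.27 without CS-exposed replicate 2, with unadjusted p = 0.0331, and 0.08 without CS-exposed replicate 3. In replicates 1 and 2 it was -0.0016, with means of 6.973 and 6.976 FPKM, and in replicates 3 and 4 it was 0.33. The ratio of Gas5 to Snhg1 was 40.1 ± 4.28 in untreated Ct and 39.2 ± 5.45 in CS (SD, n = 4, exact permutation p = 0.771).

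Other snoRNA hosts were listed beside Gas5 and Snhg1. Of 30 listed hosts 21 could be matched and 19 were tested, and the 1 with an unadjusted limma p under 0.05 (5.26%, beside 4.83% of all genes) was Gas5. The median log2 fold change of the list was 0.0196. By the implied lengths Snhg12 was the long noncoding host with the highest level. With the other divisor given above Gas5 would be higher, at 1035 and 1131 FPKM. Snhg12 measured 345.6, 374.9, 300.5 and 360.2 FPKM in untreated Ct and 381.7, 337.4, 352.8 and 369.1 in CS, and its log2 fold change was 0.06 (limma p of 0.343). Snhg6 was at 153 and 164 FPKM (limma p of 0.229), and Snhg5 at 14.3 and 14.4 (limma p of 0.966). Protein-coding hosts with the highest levels were Rps12, Eef2 and Rpl13a, with log2 fold changes of 0.0306, 0.0189 and 0.0196.

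The nonsense-mediated decay factors, which degrade spliced Gas5 and Snhg1, were also listed. Of 20 tested, 1 was lower and 1 higher at an unadjusted limma p under 0.05, beside 2.08% lower and 2.75% higher over all genes, and the median log2 fold change was -0.0559. Magoh, a core protein of the exon junction complex, was at 7.89 ± 0.892 and 5.92 ± 1.83 FPKM in untreated Ct and CS (SD, n = 4), with a limma p of 0.0424. Eif4a3, the helicase of the same complex, was at 16.4, 15.91, 16.07 and 17.03 FPKM in untreated Ct and 18.65, 17.22, 20.34 and 17.74 in CS, with a limma p of 0.0265. Both had adjusted p = 0.956 in limma, and neither passed. Upf3a, at 31.9 and 34.5 FPKM in untreated Ct and CS, and Rbm8a, at 25.3 and 25.9, were the most abundant of these factors, with limma p of 0.105 and 0.659.

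Since Gm26917 lies beside annotated ribosomal RNA, a list headed structural and ribosomal noncoding RNAs was set beside it, but no structural or ribosomal RNA of it was tested. Of 27 entries besides Gm26917, 3 could be matched and 1 passed the minimum level. This was Lars2, which is a protein-coding gene for the leucyl-tRNA synthetase of mitochondria. It measured 52.3, 58.72, 52.35 and 69.48 FPKM in untreated Ct and 48.17, 35.95, 54.04 and 41.3 in CS, with 3 of the 4 values of CS-exposed FC below the untreated Ct range. Its log2 fold change was -0.38 (SE 0.124, limma p of 0.00978, adjusted p = 0.956), which did not pass. Gm15564 was under the minimum, with means of 0.659 and 0.807 FPKM.

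Genes of RNA polymerase I and ribosomal RNA processing had a median log2 fold change of 0.00991 over 37 tested. At an unadjusted limma p under 0.05, 2 were lower and 1 higher (8.11%, beside 4.83% of all genes), and none was called after adjustment. Polr1b, the second largest subunit of the polymerase, was at 1.56, 1.609, 1.807 and 1.88 FPKM in untreated Ct and 1.387, 1.202, 1.024 and 1.249 FPKM in CS. The groups of Polr1b did not overlap, as for 3.08% of all genes (log2 fold change -0.47, limma p of 0.0159, adjusted p = 0.956). Polr2h, a subunit shared by the nuclear RNA polymerases, was at 2.81 and 1.69 FPKM with 13 to 94 reads. Polr2e, another shared subunit, was at 28.0 and 30.5 FPKM. For Polr2e 4 of 4 CS-exposed libraries were above every untreated Ct library, as for 1.8% of all genes tested. Ncl, Polr1d and Nhp2, the most abundant of the list, had log2 fold changes of 0.0439, -0.0174 and -0.0254.

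**Figure D5:**
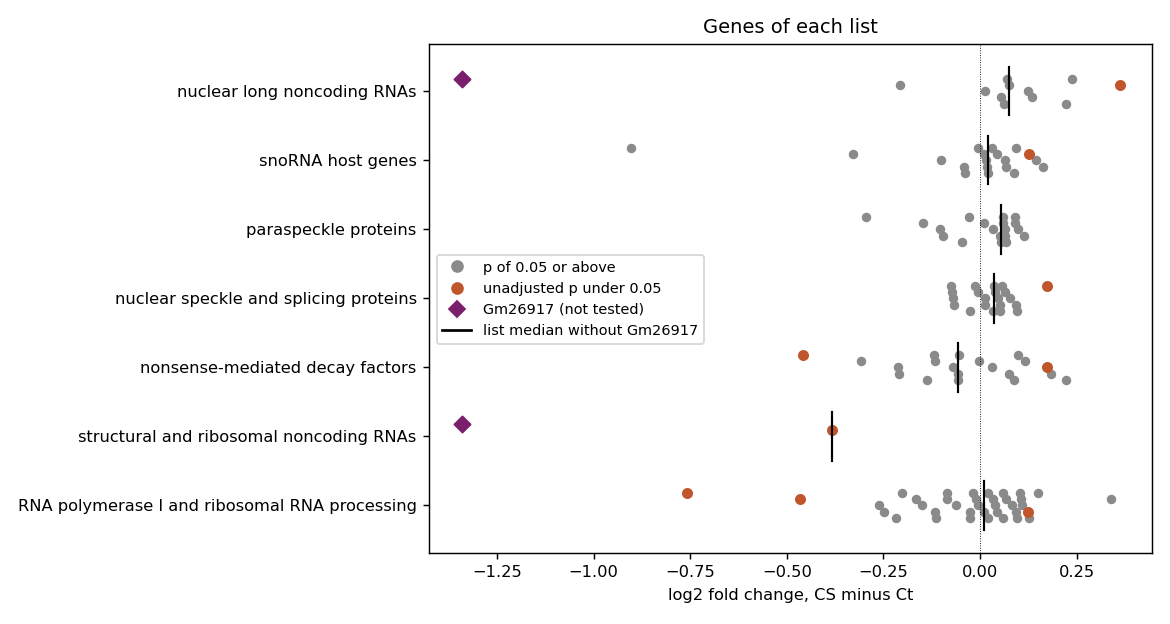
Log2 fold change (CS minus untreated Ct) of each tested gene of the lists, with genes at an unadjusted limma p under 0.05 in orange, Gm26917 as a diamond and the list median without Gm26917 as a bar. Medians lie between -0.0559 and 0.0743 except in the list headed structural and ribosomal noncoding RNAs, where the bar is the value of a single protein-coding gene, Lars2, at -0.382.

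Across the 8 libraries the 6 RNAs were compared in 15 pairs on the log2(FPKM + 0.1) scale, and p-values were adjusted over the 15. Of the 10 pairs without Gm26917 none passed after adjustment. Gas5 and Snhg1 had Pearson r = 0.634 (exact permutation p = 0.094, adjusted p = 0.689) and Spearman rho = 0.667 (exact permutation p = 0.0831), with r = 0.837 when the 2 libraries farthest from the median were left out and 0.526 after subtraction of the group means. Malat1 and Neat1, which lie on the same chromosome, had r = -0.0754 (exact permutation p = 0.865). For Gm26917, whose values in these libraries chose it, r is a description without a test: it was -0.669 with Gas5 and 0.497 with Malat1, and -0.0361 and 0.00336 after subtraction of the group means.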

How the data were processed

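RNA-Seq libraries (NEB Next Ultra kit, paired reads of 150 bases) were aligned by the authors to GRCm38 with STAR 2.5 and counted with HTSeq 0.6.1, per the series' design text and the submitters' processing notes. The annotation release, the strand setting and the removal of ribosomal RNA are not given in the sources used here. The authors deposited FPKM per library, the value used here. Their own comparison of the groups, deposited by the authors as log2 fold changes with p-values, was not used. The p-values here measure the spread between pools, which in the main fit and the permutations includes any difference between male and female pools.

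Genes whose mean reached 1 FPKM in at least one group (9794) were fitted as log2(FPKM + 0.1) with limma 3.58.1 in R 4.3.3 (trend, two-sided, Benjamini-Hochberg over all genes), without a pairing of libraries. Folds of low genes are understated on this scale. Permutation tests are exact and two-sided, with 0.0286 the smallest p of 4 against 4 libraries. FPKM steps gave whole reads for 99.8% of 9795 genes and the fragments per library, where a value was taken as whole within 5e-07 of itself plus 1e-06 reads, at most 0.1 reads, with up to 60000 reads tried for the lowest library. These, and the gene lengths that the steps imply, are recovered values, and counting intervals cover counting error only. Sequences, types and coordinates are from GENCODE M21. Python 3.11.15, numpy 2.4.6, pandas 2.3.3, scipy 1.17.1 and matplotlib 3.10.9 were used, and the fit was tested on simulated data.

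The 6 RNAs, the lists and the tests were chosen with earlier results of these data known. Named genes are the 6 RNAs, the genes of each list with an unadjusted p under 0.05 or among its 3 highest levels, the 3 genes most like each RNA, neighbours of Gm26917 and marker genes. Gm3699, Npy, Cep162 and other genes outside this rule were named after their values were seen. Alternatives were another pseudocount, minimum level, scaling and variance model, a replicate block, leaving out each library, and limma-voom on recovered reads, which was chosen after seeing the data.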

Additional observations from a re-analysis of the deposited data

How the results depend on the processing

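The log2 fold changes of Gm26917, Malat1, Neat1, Gas5 and Snhg1 kept their direction under all 20 alternatives, and none of the 4 tested ones passed an adjusted p of 0.05 in limma under any of them. Over settings other than leaving out a library Gm26917 ranged from -1.35 to -1.31. Leaving out 1 library gave -0.292 to -0.144 for Malat1, 0.0776 to 0.261 for Neat1, 0.0946 to 0.165 for Gas5 and 0.0774 to 0.273 for Snhg1. Unadjusted p was under 0.05 under 15 of 20 alternatives for Gas5, with 0.0852 after median centring and 0.112 without the variance trend. For Meg3 the difference of 0.24 was 0.0315 with a pseudocount of 1 and 0.70 with 0.01, and leaving out 1 library gave 0.164 to 0.337, the latter without CS-exposed replicate 1.

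The count of genes with adjusted p under 0.05, which was 1, was 0 without a minimum level, 0 without the variance trend and 2 with limma-voom on recovered reads, an alternative chosen after seeing the data. It was 0 to 1 when 1 library was left out, and 0 without untreated Ct replicate 4. The numbers were not taken as pairs because the study describes no pairing of the pools. Deviations of same-numbered libraries from their group means had correlations of 0.012, 0.0777, 0.111 and 0.161. Of the untreated Ct libraries, 3 of 4 were closest to the CS-exposed library of their own number. With the replicate block 5 genes were called, and Malat1 had an unadjusted limma p of 0.0201 in that fit. Genes at an unadjusted p under 0.05 numbered 204 lower and 269 higher, 78 and 148 with a minimum of 5 FPKM, and 405 and 457 with no minimum, as different numbers of genes were tested. The excess of higher calls was not stable: there were 235 lower and 239 higher after median centring, 249 and 249 without the variance trend, and 286 and 220 without CS-exposed replicate 3. When 1 library was left out they were 159 to 286 lower and 220 to 313 higher. The cause of the other shifts was not tested. Depth limits Meg3, with 4 to 21 reads per library.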

Other observations

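Other noncoding genes were more abundant than the 6 described. By the mean over 8 libraries Yam1 led the 341 tested noncoding genes with 3410 FPKM, followed by 2410006H16Rik with 700, Snhg12 with 353 and Malat1 with 342, and Gas5 was at order 5, Neat1 at 20 and Snhg1 at 51. By group, Malat1 was above Snhg12 in untreated Ct (366.1 against 345 FPKM) and below it in CS (317.9 against 360). Gm26917 was at 13 with 46.1 FPKM, a mean over groups at 65.95 and 26.22 that describes neither. These orders use the implied lengths, and with the other divisors given above Gas5 would be at 1035 and 1131 FPKM and Gm26917 at 17.22 and 6.843. Prox1os, antisense to the lens fiber regulator Prox1, was at 75.8 FPKM. Of the 341 noncoding genes 19 were lower and 24 higher in CS at an unadjusted limma p under 0.05, or 12.6% of them beside 4.83% of all genes tested. Gm26917 is 1 of the 19. After adjustment the count was 1, again Gm26917, which only restates how that gene was chosen.

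The tested genes whose log2 levels followed each RNA most closely after subtraction of the group means, over 8 libraries, are given as a description, since the highest of 9794 correlations over so few libraries is high in any case. For Gm26917 they were Gja3, a lens fiber connexin (r = 0.973), Ngdn (0.96) and 1700080G11Rik (0.958), and without that subtraction Exosc8, a subunit of the RNA exosome (0.965), Prpf8, the core protein of the spliceosome (0.943), and Ccdc82 (0.938). Malat1 was followed by Tmem160 (r = 0.966), mt-Nd2 (0.965) and Anxa4 (0.965), and Neat1 by Sharpin (0.986), Lclat1 (0.98) and Snx27 (0.969). Gas5 was followed by Phf5a (r = 0.976), Fam114a1 (0.958) and Rpl23 (0.954), Snhg1 by Akr1c13 (0.965), Macf1 (0.961) and Lamtor2 (0.951), and Meg3 by Rrn3 (0.99), Rcor1 (0.985) and Slc35b2 (0.974). The libraries of each group share their exposure, and all share the depth scale of FPKM.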
